A study of Mus musculus with 11 samples.

Results

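TGF-beta and activin signalling was examined in keratinocytes of the mouse hair follicle through 10 genes: the ligand genes Tgfb1, Tgfb2 and Tgfb3, the activin subunit genes Inhba and Inhbb, the receptor genes Tgfbr1, Tgfbr2 and Tgfbr3, and the signal transducers Smad2 and Smad3. Every probe set whose annotation gives exactly 1 of these symbols was taken, which made 24 probe sets of 34945 with 1 symbol, and 10 genes of 18193. Expression had been measured on 11 single-channel Affymetrix arrays, 5 of CD34+ cells and 6 of CD34- cells. All cells came from the back skin of K5-myrAkt(L84) transgenic mice, in which the keratin 5 promoter drives a membrane-bound, active form of the kinase Akt in basal epidermis and the outer root sheath. Keratinocytes were bound to an antibody against CD34, a surface marker of the follicle bulge, and parted with magnetic beads. The cell type label calls both fractions hair follicle stem cells, whereas the series text uses that name for the CD34+ fraction alone. Both groups carry the transgene and no wild-type group was analysed here. The labels state neither the age of the mice nor whether each array came from separate mice, so the p-values measure only the spread between these samples. The comparison asks how the CD34+ and CD34- cells of these mice differ.

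TGF-beta ligands are secreted in a latent complex that is tethered to matrix by latent TGF-beta binding proteins and opened by integrins or proteases. The active dimer binds the type II receptor Tgfbr2, often after capture by the co-receptor betaglycan (Tgfbr3), and Tgfbr2 then activates the type I receptor Tgfbr1. Tgfbr1 phosphorylates Smad2 and Smad3, which enter the nucleus with Smad4. Activins are dimers of inhibin beta subunits and reach the same Smads through receptors of their own. In the hair follicle, TGF-beta2 from the dermal papilla is known to act on stem cells at the onset of hair regeneration.

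Values are MAS5 signals on the log2 scale, where 1 unit is a doubling, and a difference is always CD34+ minus CD34-. The separation was visible in Cd34 itself, at 12.92, 10.54, 10.59, 12.58 and 12.55 on CD34+ arrays 1 to 5 and between 2.00 and 5.50 on the CD34- arrays. The keratinocyte genes Krt5 and Krt14 were bright in both groups, with differences of -0.07 (SE 0.13, limma adjusted p = 0.714) and -0.31 (SE 0.18, adjusted p = 0.22). The other 2 tested Krt14 probe sets had larger differences in the same direction, and 1 of them was called lower. The median log2 signal was 6.71 to 7.23 on CD34+ and 6.36 to 6.51 on CD34- arrays. The log2 ratio of the 3′ to the 5′ control probe set of actin, a measure that is higher where the labelled transcripts are shorter, was 3.95 ± 0.99 (SD, n = 5) on CD34+ and 2.43 ± 0.19 (SD, n = 6) on CD34- arrays. The highest of these ratios were 5.24 and 4.56 on CD34+ arrays 1 and 2, and the groups did not overlap, so that the actin ratio and CD34 status cannot be told apart. The same ratio of Gapdh overlapped, with means of 3.32 on CD34+ and 3.16 on CD34- arrays and ranges of 2.96 to 3.69 and 3.00 to 3.43.

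Probe sets were tested with limma after the dimmest 40% had been left out, and called at a Benjamini-Hochberg adjusted p under 0.05 over the 20967 that remained. Of the 24 probe sets, 13 passed the brightness filter, and they stand for 9 genes, with Tgfb3 missing. CD34+ cells had higher signals for Tgfb2 and Inhba, and lower signals for Tgfbr2, Tgfbr3 and Smad2. Of the 13 tested probe sets, 4 were called higher (background 11.0% of all tested probe sets), 3 lower (background 9.77%) and 6 were not called, so that 53.8% were called against a background of 20.7%. Of the 4 higher, 3 belong to Tgfb2, and by gene 2 were higher and 3 lower of the 9. The members were chosen with earlier results of these data known, so the share above background is a description. The groups did not overlap in 5 of the 13, where 13.4% of all tested probe sets had no overlap. The median difference was 0.14 over the 13 and 0.02 over all tested probe sets. In such bulk samples, fewer cells of a type and less RNA per cell cannot be told apart. Equalising the medians of the arrays shifted every difference by -0.48 and reduced the share of higher among all calls from 52.9% to 7.57%, and quantile normalization shifted the median by -0.12 and reduced that share to 38.4%. Each direction given for a called member was the same under both scalings.

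**Figure D1:**
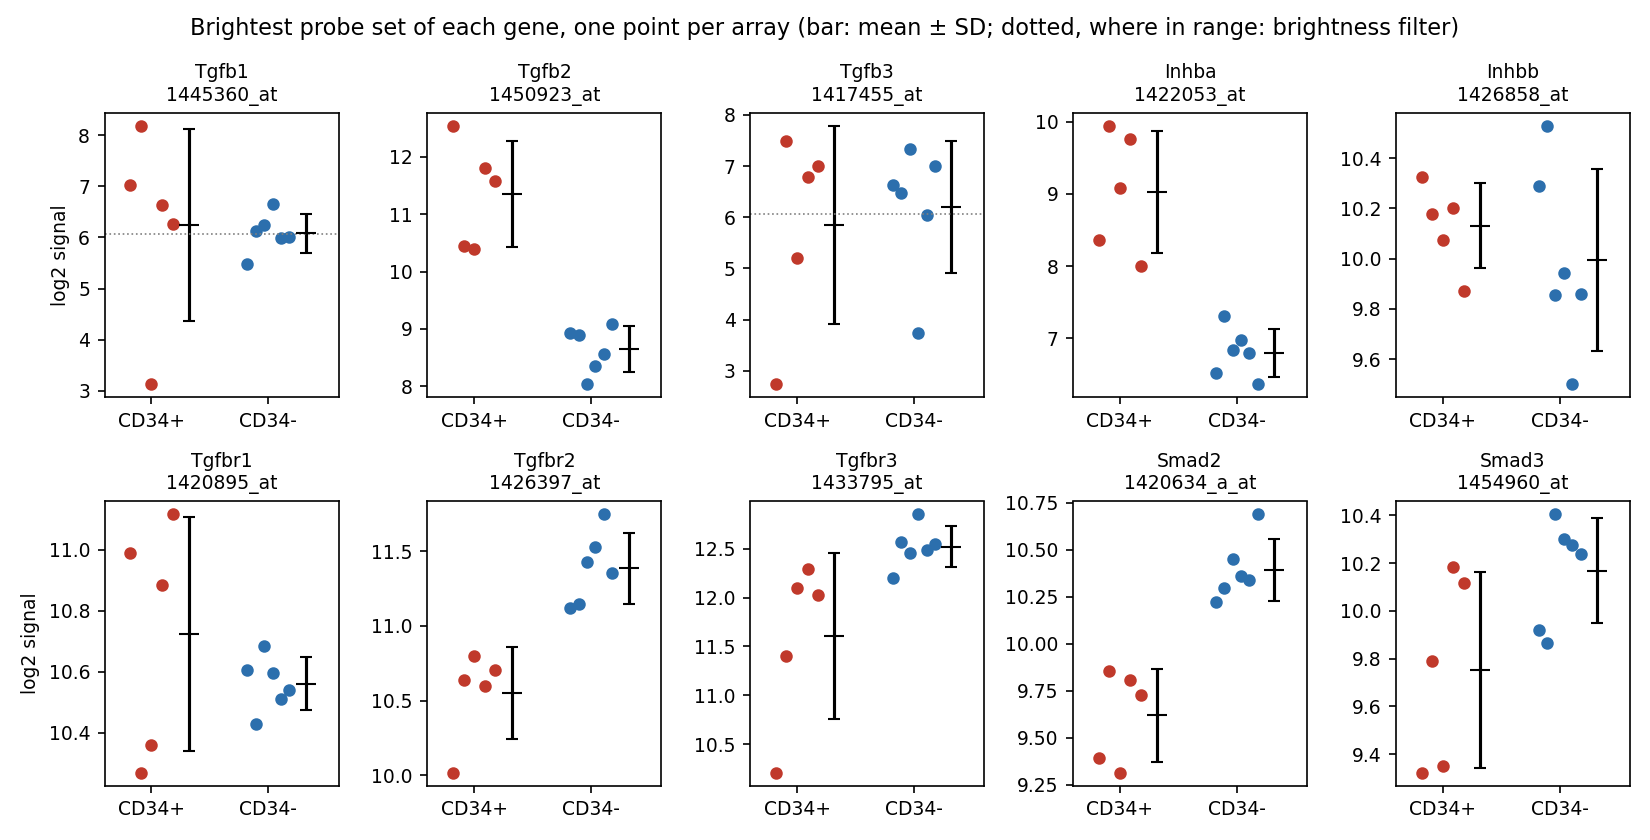
Log2 signal of the brightest probe set of each gene on each array, with CD34+ arrays in red (n = 5), CD34- arrays in blue (n = 6) and bars for mean ± SD. The vertical scale differs between panels, and the dotted line, drawn where it lies in range, is the brightness filter at 6.06. Tgfb2, Inhba, Tgfbr2 and Smad2 have no overlap between the groups, whereas Tgfb1 and Tgfb3 spread over several log2 units in CD34+ arrays.

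Among the ligand genes, Tgfb2 stood highest above its CD34- level. Its 250 bases upstream of the transcription start are shown with those of Inhba, the other gene that was higher, and of Tgfbr2, a receptor gene that was lower, all from RefSeq on build GRCm38.p6 and read 5′ to 3′ on the strand of the gene. Capitals mark matches to TATAAA, the TATA box, and CACGTG, an E-box.

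Tgfb2 promoter, chr1:186705990-186706239 (- strand): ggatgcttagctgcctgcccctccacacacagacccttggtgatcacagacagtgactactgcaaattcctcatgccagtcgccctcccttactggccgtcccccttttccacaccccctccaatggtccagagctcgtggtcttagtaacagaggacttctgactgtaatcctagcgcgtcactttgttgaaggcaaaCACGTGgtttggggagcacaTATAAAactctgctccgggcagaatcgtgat

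Inhba promoter, chr13:16011601-16011850 (+ strand): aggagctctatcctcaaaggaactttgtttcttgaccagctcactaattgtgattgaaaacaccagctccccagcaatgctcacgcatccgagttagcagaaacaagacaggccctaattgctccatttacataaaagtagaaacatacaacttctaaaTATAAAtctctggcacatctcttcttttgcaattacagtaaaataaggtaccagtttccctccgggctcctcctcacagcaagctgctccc

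Tgfbr2 promoter, chr9:116175364-116175613 (- strand): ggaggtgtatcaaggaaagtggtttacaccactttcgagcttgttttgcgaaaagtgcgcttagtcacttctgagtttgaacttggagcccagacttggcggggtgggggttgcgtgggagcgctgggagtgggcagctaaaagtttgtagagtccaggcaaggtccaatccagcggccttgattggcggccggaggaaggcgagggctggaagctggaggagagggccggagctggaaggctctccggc

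The Tgfb2 window held TATAAA at 31 to 26 bases and CACGTG at 51 to 46 bases upstream of the start. The Inhba window held TATAAA at 91 to 86 bases upstream, and the Tgfbr2 window held neither. Both strands were searched for 5 motifs, and of 32851 windows of the same length 12.4% held TATAAA, 6.02% CACGTG, 6.75% the AP-1 motif TGANTCA, 1.55% the CRE motif TGACGTCA and 0.167% the Smad palindrome GTCTAGAC. In the windows of Tgfb1, Inhbb, Tgfbr1 and Smad3 none of the 5 was found. Windows of 7 of the 10 genes were used. Tgfb3 and Tgfbr3 had no usable window, and Smad2 was left out of the search. A match describes letters in a sequence and was not set against any binding data.

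Tgfb2 encodes the TGF-beta isoform that depends most on betaglycan for access to the type II receptor. On its brightest probe set, 1450923_at, the CD34+ arrays read 12.54, 10.45, 10.38, 11.80 and 11.58, and the CD34- arrays 8.93, 8.89, 8.04, 8.36, 8.56 and 9.10. Every CD34+ array lay above every CD34- array, and CD34+ arrays 1, 4 and 5 were the highest. The means were 11.35 ± 0.92 (SD, n = 5) and 8.65 ± 0.40 (SD, n = 6). This is a 6.53-fold higher signal (95% interval 3.93 to 10.85), with a log2 difference of 2.71 (SE 0.34, limma adjusted p = 0.000224).

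The second Tgfb2 probe set, 1423250_a_at, gave a larger difference. Its CD34+ values were 12.38, 10.12, 10.19, 11.04 and 10.69, and its CD34- values 8.12, 8.03, 7.17, 6.86, 7.82 and 7.72. The groups were again apart, by 9.61-fold (95% interval 5.63 to 16.41), a log2 difference of 3.27 (SE 0.36, limma adjusted p = 7.17e-05). The third, 1450922_a_at, read 10.15, 9.04, 7.62, 9.40 and 9.27 against 7.12, 7.33, 6.38, 7.04, 6.80 and 7.65. Here the groups touched, since CD34+ array 3 lay just under CD34- array 6, and the signal was 4.12-fold higher (95% interval 2.42 to 7.03, limma adjusted p = 0.00211). The annotation ties these 3 probe sets to the same sequence record, so they are readings of 1 gene and not 3 independent results. The probe set 1438303_at was too dim to be tested, at 3.02 to 7.91 on CD34+ and 1.61 to 5.55 on CD34- arrays, and lay under the 40th percentile on all 6 CD34- arrays. Its difference was 1.90 (SE 0.88, limma adjusted p = 0.166 without a filter).

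Tgfb1, the most widely expressed isoform, had no probe set that was called. On 1445360_at, which lay just inside the brightness filter, the CD34+ arrays read 7.03, 8.18, 3.13, 6.62 and 6.25 and the CD34- arrays 5.47 to 6.65. The CD34+ values lay on both sides of the CD34- values, and the difference of 0.16 had an interval from -1.26 to 1.58 (SE 0.67, limma adjusted p = 0.883). The dimmer 1420653_at was not tested. It read 2.62, 6.82, 6.20, 2.93 and 5.61 on CD34+ arrays and 5.95 to 6.83 on CD34- arrays, with a difference of -1.62 (SE 0.68, adjusted p = 0.131 without a filter), under the 40th percentile of the array on all 5 CD34+ arrays. The only Tgfb3 probe set, 1417455_at, lay just outside the filter with a mean of 6.04. Its values of 2.74, 7.49, 5.21, 6.79 and 6.998 overlapped those of the CD34- arrays, 3.74 to 7.34, and its difference was -0.36 (SE 0.79, adjusted p = 0.796 without a filter). The interval of 1445360_at allows a change of more than a doubling either way.

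Inhba, which encodes the beta A subunit that forms activin A, was the other ligand gene that was higher. On 1422053_at the CD34+ arrays read 8.36, 9.94, 9.09, 9.76 and 8.001 and the CD34- arrays 6.52, 7.31, 6.84, 6.97, 6.80 and 6.37. The groups did not overlap, and CD34+ arrays 2 and 4 were the highest for Inhba, of which array 4 was also high for Tgfb2 and array 2 was not. The means of 9.03 ± 0.85 (SD, n = 5) and 6.80 ± 0.33 (SD, n = 6) differed 4.68-fold (95% interval 2.88 to 7.62), a log2 difference of 2.23 (SE 0.33, limma adjusted p = 0.000668). A second probe set, 1458291_at, was among the dimmest 6.5% of the probe sets and was not tested (difference 0.80, SE 0.85, adjusted p = 0.563 without a filter).

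Inhbb, which encodes the beta B subunit of activin B, was bright in both groups. On 1426858_at the CD34+ arrays read 9.87 to 10.32 around a median of 10.18, and the CD34- arrays 9.50 to 10.53 around 9.90. Its difference of 0.14 (SE 0.17) had an interval from -0.24 to 0.51 and was not called (limma adjusted p = 0.602). On 1426859_at the CD34+ arrays read 7.52, 5.61, 4.88, 7.17 and 7.65 and the CD34- arrays 5.91 to 7.36, with a difference of -0.20 (SE 0.48, limma adjusted p = 0.791). Within each array, where the scaling cancels, Inhba minus Inhbb was -1.10 ± 0.79 (SD, n = 5) in CD34+ and -3.19 ± 0.38 (SD, n = 6) in CD34- cells. This change of 2.09 had the smallest p that the 462 assignments of arrays allow (two-sided exact permutation p = 0.00216, adjusted p = 0.00864 over 8 pairs).

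The same test set Tgfb2 against its isoforms, each by its brightest probe set. For Tgfb1 this was 1445360_at, just inside the brightness filter, with CD34+ values from 3.127 to 8.182. For Tgfb3 it was 1417455_at, just outside the filter and so not tested by limma, with CD34+ values from 2.737 to 7.494. Tgfb2 minus Tgfb1 rose by 2.54 (exact permutation p = 0.0173, adjusted p = 0.0277 over the 8 pairs) and Tgfb2 minus Tgfb3 by 3.06 (exact permutation p = 0.0152, adjusted p = 0.0277). The first was lost when any of 7 arrays was left out, with exact permutation adjusted p up to 0.0635, and the second without CD34+ array 1, at 1.99 (exact permutation adjusted p = 0.0508). Tgfb3 minus Tgfb1 moved by -0.52 and did not pass (exact permutation adjusted p = 0.73). A within-array difference shows that 2 probe sets changed unequally and does not show which of them changed.

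**Figure D2:**
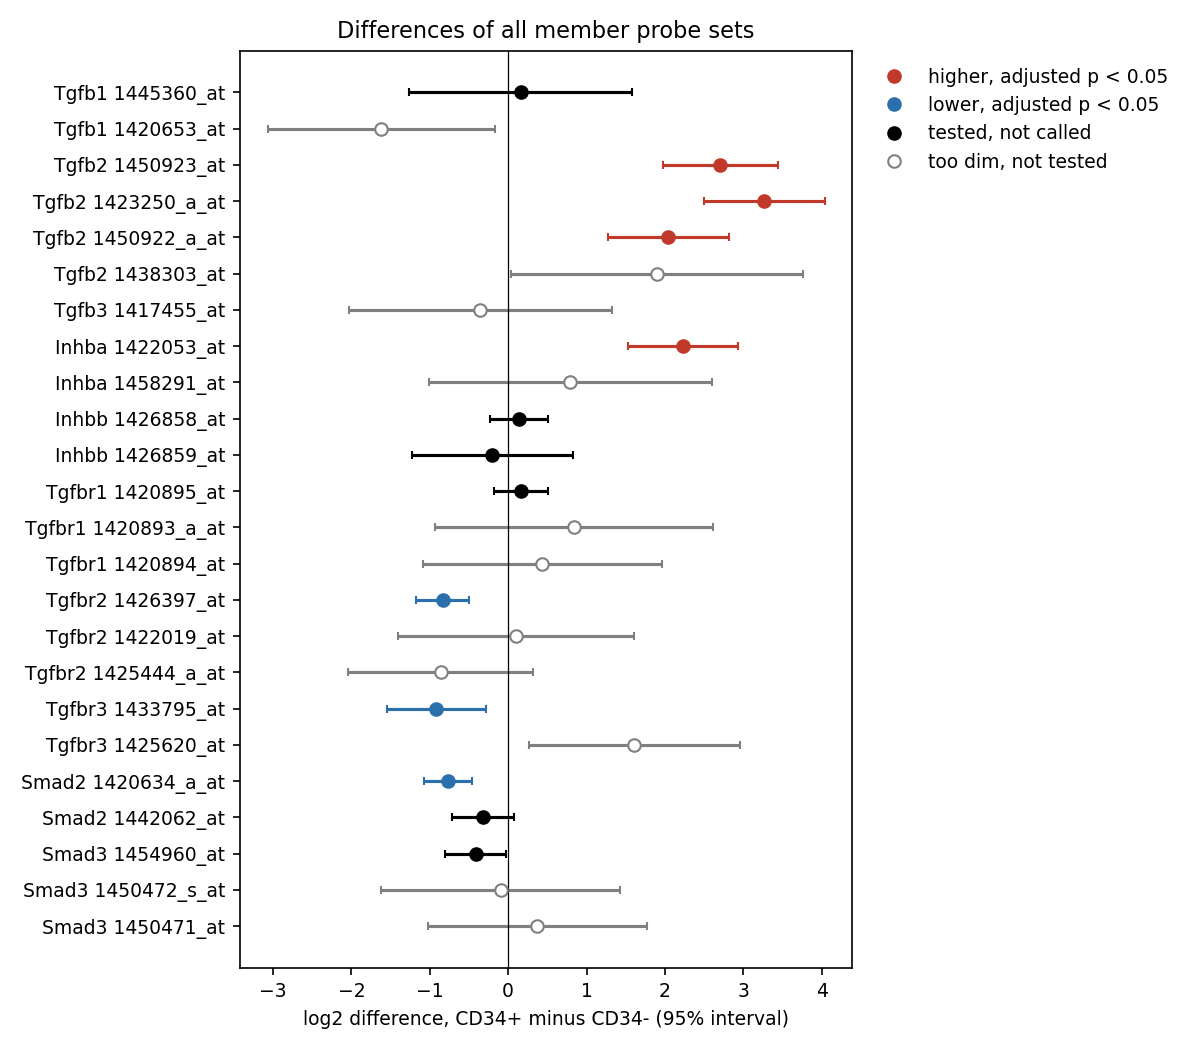
Log2 difference, CD34+ minus CD34-, with its 95% interval for each of the 24 probe sets of the 10 genes, and colour for the call. The 3 bright Tgfb2 probe sets and 1422053_at of Inhba lie between 2.04 and 3.27, and the called probe sets of Tgfbr2, Tgfbr3 and Smad2 between -0.92 and -0.77.

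The called receptor and Smad probe sets were all lower in CD34+ cells. For Tgfbr2, the type II receptor that binds the ligand, 1426397_at read 10.02, 10.64, 10.80, 10.60 and 10.70 on the CD34+ arrays and 11.12, 11.15, 11.43, 11.53, 11.75 and 11.35 on the CD34- arrays. All CD34+ arrays lay below all CD34- arrays, and CD34+ array 1 lay below the rest of its group. The signal was 1.79-fold higher in CD34- cells, a log2 difference of -0.84 (SE 0.16, 95% interval -1.18 to -0.49, limma adjusted p = 0.00345). The dim probe sets 1422019_at and 1425444_a_at were not tested and gave 0.10 and -0.86, with adjusted p of 0.94 and 0.322 without a filter.

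Tgfbr3 (betaglycan) had the least stable call of the members. On 1433795_at the CD34+ arrays read 10.21, 11.40, 12.10, 12.29 and 12.02 and the CD34- arrays 12.20, 12.57, 12.45, 12.85, 12.49 and 12.55. CD34+ arrays 1 and 2 were low, and CD34+ array 4 lay above CD34- array 1. The difference was -0.92 (SE 0.29, 95% interval -1.54 to -0.29, limma adjusted p = 0.0402). The call was lost when CD34+ array 2, or any of CD34- arrays 2 to 6, was left out, with limma adjusted p up to 0.0811. It was also lost with quantile normalization, at -0.83 (limma adjusted p = 0.0646). Without CD34+ array 1 the difference was -0.57 and was called (limma adjusted p = 0.0267), and without CD34+ arrays 1 and 2 it was -0.38 and was not (limma adjusted p = 0.0771). These are the arrays with the highest actin ratios, and adding the ratio to the model as a covariate gave a difference of 0.19 (SE 0.28, limma adjusted p = 0.827). The dim probe set 1425620_at ran the other way, at 4.93 to 7.99 on CD34+ and 3.39 to 5.66 on CD34- arrays (difference 1.61, SE 0.64, adjusted p = 0.109 without a filter).

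Tgfbr1, the type I receptor kinase, did not pass on any probe set. The brightest, 1420895_at, read 10.99, 10.27, 10.36, 10.88 and 11.12 on CD34+ and 10.43 to 10.68 on CD34- arrays. CD34+ arrays lay on both sides of the narrow CD34- range, and the difference of 0.16 (SE 0.16) had an interval from -0.18 to 0.50 (limma adjusted p = 0.488). The dim 1420893_a_at and 1420894_at gave 0.84 and 0.43 and were not tested. Within arrays, Tgfbr1 minus Tgfbr2 was 0.17 ± 0.59 (SD, n = 5) in CD34+ and -0.83 ± 0.24 (SD, n = 6) in CD34- cells, a change of 1.00 without overlap (exact permutation p = 0.00216, adjusted p = 0.00864 over the 8 pairs). Tgfbr1 minus Tgfbr3 changed by 1.08 (exact permutation adjusted p = 0.0115), and Tgfbr2 minus Tgfbr3 by 0.08, which did not pass (exact permutation adjusted p = 0.784).

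Smad2, which carries the signal of both TGF-beta and activin receptors, was lower in CD34+ cells on its brighter probe set. On 1420634_a_at the CD34+ arrays read 9.40, 9.86, 9.32, 9.81 and 9.73 and the CD34- arrays 10.22, 10.30, 10.45, 10.36, 10.34 and 10.69. The groups were apart, and the signal was 1.71-fold higher in CD34- cells (log2 difference -0.77, SE 0.14, 95% interval -1.08 to -0.47, limma adjusted p = 0.00273). On 1442062_at the CD34+ values of 8.68, 8.92, 9.28, 9.48 and 9.40 overlapped the CD34- values of 9.13 to 9.92. Its difference of -0.31 (SE 0.18, 95% interval -0.71 to 0.08) was not called (limma adjusted p = 0.233), but was with equal medians (limma adjusted p = 0.0136).

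Smad3, the DNA-binding partner of the same pathway, was not called. On 1454960_at the CD34+ arrays read 9.32, 9.79, 9.35, 10.18 and 10.12 and the CD34- arrays 9.92, 9.87, 10.40, 10.30, 10.28 and 10.24. CD34+ arrays 1, 2 and 3 lay below all CD34- arrays and arrays 4 and 5 within them. The difference was -0.42 (SE 0.18, limma adjusted p = 0.118), and -0.90 with equal medians, where it was called (limma adjusted p = 0.00554). The dim 1450472_s_at and 1450471_at gave -0.10 and 0.37 and were not tested. Within arrays, Smad3 minus Smad2 changed by 0.36, which did not pass over the 8 pairs (exact permutation p = 0.0433, adjusted p = 0.0577). With the second-brightest tested Smad2 probe set, 1442062_at, in place of the brightest, the change was -0.10 (exact permutation adjusted p = 0.73), and Smad3 has no second tested probe set.

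Adding the actin ratio to the model as a covariate left 0.711% of all tested probe sets called, and the median SE rose from 0.22 to 0.32. Of the 7 called members only 1423250_a_at of Tgfb2 was then called, at 2.65 (SE 0.55, limma adjusted p = 0.0454). The other Tgfb2 probe sets had 2.48 (limma adjusted p = 0.0612) and 1.602 (limma adjusted p = 0.246), and Inhba 2.33 (limma adjusted p = 0.0703). Tgfbr2 had -0.52 (limma adjusted p = 0.367) and Smad2 -0.64 (limma adjusted p = 0.233). Without CD34+ arrays 1 and 2, Tgfb2 had 2.61, 3.02 and 1.71, Inhba 2.15, Tgfbr2 -0.69 and Smad2 -0.78, all called.

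**Figure D3:**
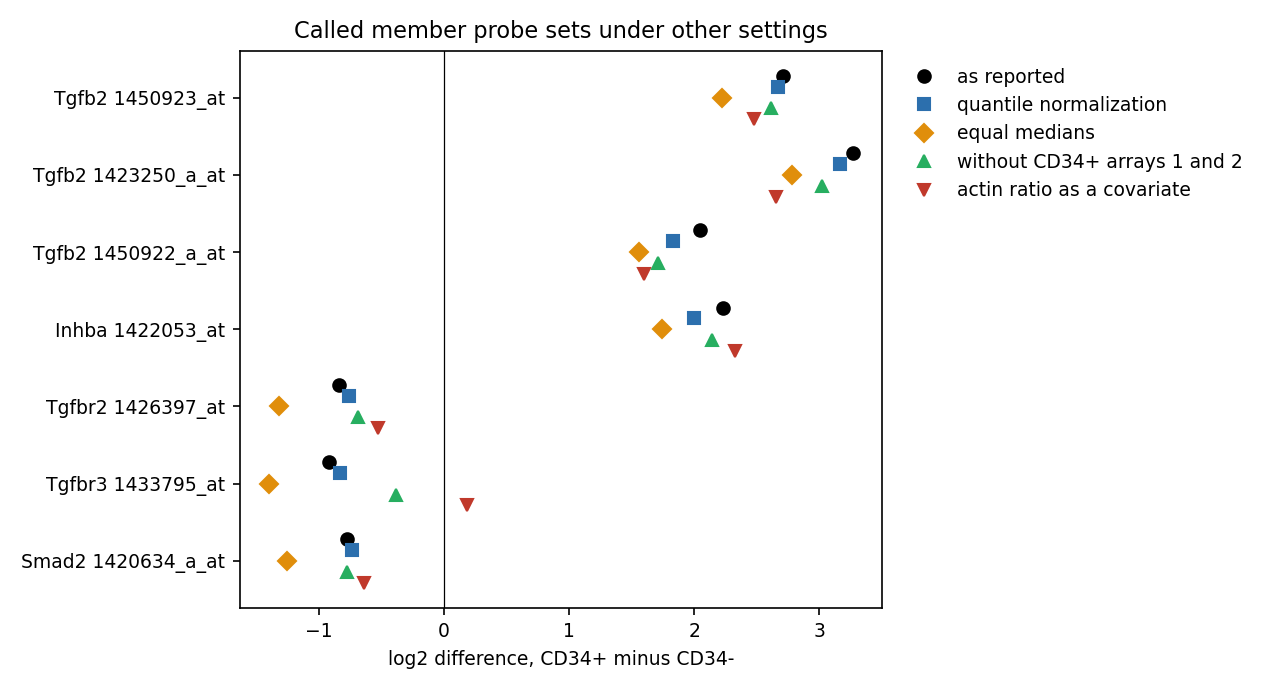
Log2 difference of the 7 called probe sets as analysed, with quantile normalization, with equal medians, without CD34+ arrays 1 and 2, and with the actin 3′ to 5′ ratio as a covariate. Tgfb2 and Inhba stay above 1.5 throughout, Tgfbr2 and Smad2 stay below -0.5, and Tgfbr3 lies at 0.19 with the covariate.

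Markers of other cells of skin moved between the groups as well, and their part in the differences of the 10 genes was not tested. For each marker list, the background was 11.0% of all tested probe sets higher and 9.77% lower. No list was tested as a set. Of 8 fibroblast markers 4 were tested and 3 were higher in CD34+ cells, and their summed linear signal was 3029 to 8612 on CD34+ and 566 to 946 on CD34- arrays, without overlap. Col1a2, a chain of fibrillar collagen, made the largest part of that sum on each CD34+ array. It read 12.59, 11.13, 11.09, 11.99 and 11.70 on CD34+ arrays and 7.61 to 8.71 on CD34- arrays (difference 3.49, SE 0.26, limma adjusted p = 5.52e-06). Pdgfra, a receptor of dermal fibroblasts, differed by 1.59 (limma adjusted p = 0.0222). Tgfb2, Col1a2 and Cd34 were all higher on CD34+ arrays 1, 4 and 5 than on 2 and 3. The bulge markers Lhx2, Lgr5 and Nfatc1 had that order too, and Sox9, Krt15, Tcf7l1 and Tbx1 did not. Of these, Lhx2, Lgr5, Sox9, Tcf7l1 and Tbx1 were named after their values were seen. The other called fibroblast markers had other orders: Pdgfra was highest on array 2 (9.52) and lowest on array 5 (6.56), and Col3a1 was highest on array 1 (10.19) and lowest on array 5 (7.09). The fibroblast markers Lum and Dpt, like Col3a1 named after their values were seen, were under the brightness filter. Dpp4, the remaining tested fibroblast marker, had 0.07 and was not called (limma adjusted p = 0.86). The untested Col1a1 and Pdgfrb had 0.98 and -1.13 (limma adjusted p = 0.345 and 0.39 without a filter). Dpp4, Col1a1 and Pdgfrb were likewise picked with their values known. Col3a1, with a CD34- mean of 4.25, passed the filter at 6.06 only through its CD34+ signal.

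Of 6 dermal papilla markers, a cell type known to make Tgfb2, 2 were tested, none was called higher and Rspo3 was lower by -1.16 (limma adjusted p = 0.0008), while Alpl had 0.36 and was not called. Their summed signal was 365 to 788 on CD34+ and 688 to 877 on CD34- arrays, and 4 of the 6 lay under the 40th percentile on every array. Of the 8 follicle bulge markers 7 were higher (background 11.0%), and 1 of the 7 was Cd34, the marker by which the cells were parted. Nfatc1, a bulge transcription factor, was among them (1.02, limma adjusted p = 0.00502), while Krt15 differed by 0.47 (limma adjusted p = 0.0531). All 5 tested T cell markers of 7 were lower, with sums of 448 to 1481 against 2136 to 4287, among them Thy1 (-1.20, limma adjusted p = 0.00785) and Cd3g (-2.69, limma adjusted p = 0.0276). Cd7 and Trgv1, picked with their values known, had CD34+ means of 5.095 and 6.04, under the filter at 6.06. They passed it only through higher CD34- means, so for them the filter allowed no other direction. Cd3d, picked in the same way, was too dim to be tested and had -3.95 (limma adjusted p = 0.00019 without a filter). Of 9 antigen presenting and myeloid markers 8 were tested. Of these, 4 were higher (background 11.0%) and 1 lower (background 9.77%), with sums of 5614 to 16014 against 5184 to 8942. The class II gene H2-Aa had 0.95 (limma adjusted p = 0.0169) and the leukocyte gene Ptprc -1.81 (limma adjusted p = 0.00755). Of 6 smooth muscle and pericyte markers 2 were tested and 1 was higher (background 11.0%), Acta2 (2.05, limma adjusted p = 0.0177). Rgs5 had 0.53 and was not called, and the sums of the 6 were 538 to 4333 against 338 to 553. Of 6 endothelial markers (sums 176 to 528 against 154 to 242) Kdr alone was tested and was not called, at 0.12, and Tek was too dim. The untested Pecam1, named after its values were seen, had 2.09 (limma adjusted p = 0.0415 without a filter). None of 6 melanocyte markers was called either (4899 to 5880 against 3727 to 23123), with Dct at -0.50 and Tyrp1 at -0.87. Both were highest on CD34- arrays 1 and 2, where Dct read 13.38 and 13.58 and Tyrp1 12.63 and 12.85. The other CD34- arrays read at most 11.67 for Dct and 10.29 for Tyrp1. Of 6 keratinocyte markers none was higher and 2 were lower (background 9.77%), with sums of 74500 to 98880 against 84387 to 107277.

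The other genes of the pathway were taken from 5 lists with 61 genes, of which 58 had a probe set and 48 were tested, each by its brightest. Of these, 14 were higher and 4 lower in CD34+ cells, or 37.5% called against the background of 20.7%, with a median difference of 0.23. That background counts every tested probe set, whereas the lists hold 1 probe set a gene. The lists too were chosen with earlier results of these data known. Genes of these lists that were not called are named after their values were seen. Among the genes of latency and activation, 5 of the 9 tested were higher (background 11.0% of all tested probe sets) and none lower (background 9.77%). Of the latent TGF-beta binding proteins, Ltbp2 had 2.24 (SE 0.23, limma adjusted p = 5.34e-05), Ltbp3 0.96 (SE 0.19, limma adjusted p = 0.00379) and Ltbp1 0.79 (SE 0.20, limma adjusted p = 0.013). Ltbp4 went the other way, at -0.58, and was not called (limma adjusted p = 0.108). The other tested Ltbp3 probe sets had 0.37 and 1.38, and 1 of them was called higher. Ltbp2, unlike its relatives, is not known to bind latent TGF-beta. Of the integrin subunits that can free TGF-beta, Itgb8 had 0.93 (limma adjusted p = 0.00607) and Itgav 0.45 (limma adjusted p = 0.0161), the latter -0.03 with equal medians. Under that scaling 1 gene of this list was higher and 1 lower, and Ltbp1 (limma adjusted p = 0.219), Ltbp3 (limma adjusted p = 0.0593) and Itgb8 (limma adjusted p = 0.115) were not called, while Ltbp2 was.

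Of the activin and inhibin subunits and antagonists, 1 of 4 tested genes was higher (background 11.0% of all tested probe sets). It was the inhibin alpha subunit gene Inha (0.61, limma adjusted p = 0.0354). That call was lost when any of 6 arrays was left out, with limma adjusted p up to 0.0766. The activin antagonist genes Fst and Fstl3 had 0.45 and -0.15 and were not called. Of the other receptors, 2 of 5 tested were higher (background 11.0%). They were the activin type I receptor Acvr1b (0.39, limma adjusted p = 0.0147) and the type II receptor Acvr2a (0.49, limma adjusted p = 0.0276). With equal medians they had -0.09 and 0.01, and Acvr2a lost its call without any of 4 arrays (limma adjusted p up to 0.0604).

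Of Smad4, the inhibitory Smads and other intracellular regulators, 1 of 14 was higher (background 11.0% of all tested probe sets) and 2 were lower (background 9.77%). Dab2, an endocytic adaptor that binds TGF-beta receptors and Smads, had 2.73 (SE 0.36, limma adjusted p = 0.000335). The lower ones were the ubiquitin ligase gene Smurf1 (-0.62, limma adjusted p = 0.0422) and the corepressor gene Tgif1 (-0.69, limma adjusted p = 0.0468), each lost when any of 9 arrays was left out, with limma adjusted p up to 0.0762 and 0.102. The common partner Smad4 had -0.25, Smad7 0.13 and Skil 0.35, none of them called by its brightest probe set. The other tested Smad7 probe set had 1.65 and was called higher.

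Of 17 tested genes known as TGF-beta targets, 6 were higher (background 11.0% of all tested probe sets) and 2 lower (background 9.77%). With equal medians 2 were higher and 5 lower, where 675 of all tested probe sets were higher and 8239 lower. Ccn2, a matricellular protein gene long used as a TGF-beta readout, read 15.91, 14.18, 14.27, 13.94 and 14.11 on CD34+ arrays and 10.87 to 11.56 on CD34- arrays. The groups lay far apart, with a difference of 3.22 (SE 0.29, limma adjusted p = 1.98e-05). Ltbp2 belongs to this list too. Gadd45b, a stress and growth arrest gene, had 0.96 (limma adjusted p = 0.0125), though its other tested probe sets had 0.17 and 0.09. Id2, an inhibitor of basic helix-loop-helix factors that TGF-beta lowers in epithelial cells, had 1.21 (limma adjusted p = 0.0145). Chosen after their values were seen, the other called genes were Id1 (1.11) and Id3 (0.80), whose calls were each lost without any of 6 arrays (limma adjusted p up to 0.0795 and 0.0802; Id3 had 0.50 without CD34+ array 1), and, on the lower side, Junb (-0.91, limma adjusted p = 0.0182) and the cell cycle inhibitor gene Cdkn1a (-0.75, limma adjusted p = 0.019). With equal medians Gadd45b, Id1, Id2 and Id3 were not called (limma adjusted p from 0.0785 to 0.34). Cdkn2b (0.04) was not called, nor was Tgfbi by its brightest probe set (0.24), whose other tested ones had -0.71, -0.11 and -0.35, with 1 of them called lower. Id1, Id2 and Id3 are also known as direct targets of BMP signalling. In the model with the actin ratio, 3 genes of the lists were still called, Ccn2 (2.32, limma adjusted p = 0.0121), Ltbp2 (2.03, limma adjusted p = 0.0281) and Dab2 (2.94, limma adjusted p = 0.0403).

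**Figure D4:**
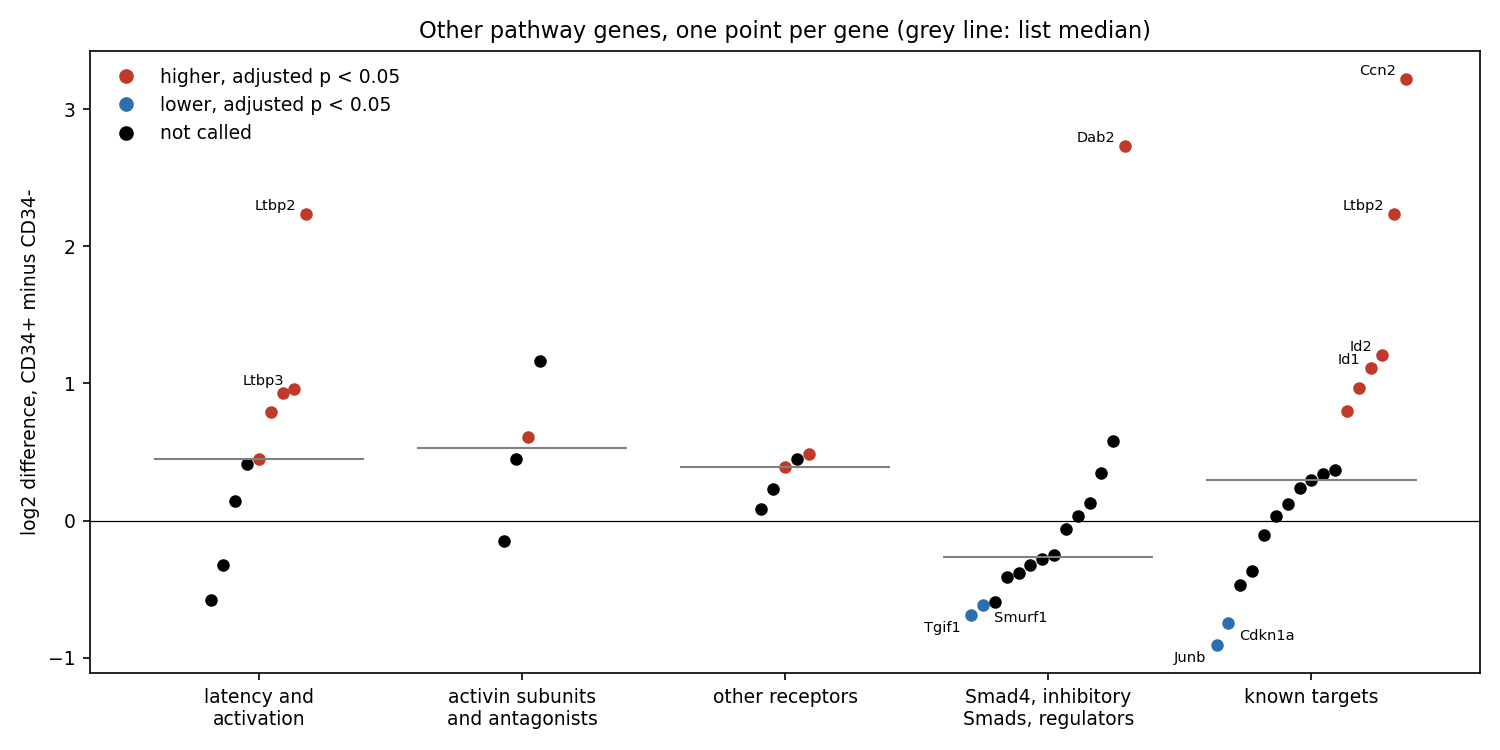
Log2 difference, CD34+ minus CD34-, of the tested genes of the 5 pathway lists, 1 point a gene by its brightest probe set, with the list's median as a grey line. Ccn2, Dab2 and Ltbp2 lie above 2, and the 4 genes called lower, Junb, Cdkn1a, Tgif1 and Smurf1, lie between -0.91 and -0.62.

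For each of the 10 genes, the gene with the most similar pattern over the 11 arrays was taken among the brightest probe sets of 11891 genes that passed the filter. These are descriptions over arrays that share the group difference and the actin ratio. Tgfb2 was most like Abtb2 (Pearson r 0.993 over all arrays, 0.959 after the group means were removed), a gene higher by 1.00 in CD34+ cells. Inhba was most like Sall2 (0.979 and 0.908), higher by 1.20. Tgfbr3 was most like Rpp30 (0.987 and 0.979), Tgfbr2 most like Ctdsp2 (0.973 and 0.939) and Smad2 most like Trav9d-3 (0.965 and 0.834), a T cell receptor segment that was lower by -0.97. For the genes that were not called, the most similar were Myo7b for Tgfb1 (0.968), Prcp for Tgfb3 (0.921), Adcy2 for Inhbb (0.868), Hspa13 for Tgfbr1 (0.949) and Tmem60 for Smad3 (0.964).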

How the data were processed

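Total RNA of CD34+ (n = 5) and CD34- (n = 6) keratinocytes was hybridised as biotin-labelled cRNA. The authors deposited 1 MAS5 value per probe set and array, per the submitters' processing notes, which name neither a version nor settings. The deposited values lie on the log2 scale: as linear signals, their mean after trimming 2% at each end was 500.002 to 500.004 on every array. They were used without further scaling, and no detection calls were used, so a low value is dim, not absent. Of 45101 probe sets, 64 are controls, 34945 have 1 gene symbol in the platform annotation (34741 named through RefSeq), 932 several and 9160 none.

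Groups were compared with limma 3.58.1 in R 4.3.3 (linear model, empirical Bayes with an intensity trend), with Benjamini-Hochberg adjustment over 20967 probe sets with 1 symbol, after the dimmest 40% by mean over all arrays were left out (mean log2 signal under 6.06). Pairs of genes were compared within arrays by exact permutation. On simulated data the model recovered 8%, 42%, 90% and 98% of 50 probe sets each with 1.5-, 2-, 4- and 8-fold changes. Only these were changed among 20967, a far smaller share than the 20.7% called in the data. The simulated noise was independent between probe sets, without differences between whole arrays, so the recovered shares need not hold for these data. The number of arrays limits the precision, and the median SE was 0.22. Members, lists and tests were chosen with earlier results of these data known.

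Named genes are all member probe sets, up to 4 called genes with the smallest p per pathway list (all where 5 or fewer were called), the most similar gene of each member, Cd34, Krt5, Krt14 and the 2 brightest of a marker list. Others are said to be chosen after their values were seen. Alternatives were other filters, scalings, offsets and variance models, the replicate number as a block, the actin ratio as a covariate, and each array left out. The deposited values name no genome build, so coordinates are given only for the RefSeq promoter windows (GRCm38.p6). The labels do not say whether replicate numbers shared by the groups pair the arrays, and the main model took them as unpaired.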

Additional observations from a re-analysis of the deposited data

Results flagged for a closer look

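In 48 groups of values, one for each of the 24 probe sets in each fraction, Dixon's criterion found a single array apart from the rest of its group in 4, and chance alone gives about 1 in 20. CD34+ array 1 was the lowest for Tgfbr2 on 1426397_at, at 10.02 where the next array had 10.60. The other 3 were dim and untested. CD34- array 4 was the lowest for Tgfb3 on 1417455_at, at 3.74 where the next had 6.05. CD34- array 5 was the lowest for Tgfbr1 on 1420893_a_at, at 1.20 where the next had 4.78. CD34+ array 4 was the lowest for Smad3 on 1450472_s_at, at 1.98 where the next had 5.56.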

How the results depend on the processing

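The calls of Tgfb2, Inhba, Tgfbr2 and Smad2 were kept with each array left out, where Tgfb2 ranged from 2.41 to 2.95, 2.89 to 3.46 and 1.78 to 2.41 on its 3 bright probe sets, Inhba from 2.00 to 2.48, Tgfbr2 from -0.90 to -0.70 and Smad2 from -0.83 to -0.69. The counts of members were then 4 higher and 2 to 3 lower. With 1 probe set a gene, 2 members were higher. With equal medians, 5 members were lower, and pathway genes were 3 higher and 17 lower, against 14 and 4 as analysed. With the actin ratio as a covariate, 1 member was higher and 0 lower, Tgfbr3 had 0.19, and pathway genes were 3 higher and 0 lower. The cause was not tested. At an adjusted p under 0.01, 5 pathway genes were higher and 0 lower, and without the brightness filter 2 were lower. With an array left out, pathway genes were 10 to 13 higher and 2 to 5 lower. The labels do not say whether arrays with the same replicate number are paired. Correlations of deviations were 0.02 to 0.18 for the same number and -0.23 to 0.21 for other numbers, which cannot exclude a pairing. With the replicate number as a block 4 members were higher and 3 lower. Pathway genes were then 10 higher and 2 lower, with Itgav, Inha, Acvr1b and Acvr2a among those not called. Within arrays, the second-brightest tested Smad2 probe set gave -0.10 for Smad3 minus Smad2, and with an array left out Tgfb2 minus Tgfb1 ranged from 2.01 to 3.25, Tgfb2 minus Tgfb3 from 1.99 to 3.70, Tgfb3 minus Tgfb1 from -1.14 to 0.46 and Tgfbr2 minus Tgfbr3 from -0.14 to 0.24.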
